A study of Mus musculus with 12 samples.

Results

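The NADPH oxidases and dual oxidases described here comprised 10 genes: Nox1, Noxo1, Noxa1, Nox4, Duox1, Duox2, Duoxa2, Cyba, Cybb and Ncf1. They were taken by symbol from 19938 genes that had transcript clusters with exactly 1 symbol, and each of the 10 was measured by exactly 1 cluster. The set was chosen by the log2 values of Nox1 and Noxo1, which had been seen to differ between the 2 mated groups, so every difference between those groups is given for these genes as a description without a test. Endometrial RNA was measured on 12 Affymetrix Mouse Gene 1.0 ST arrays, 4 for each of 3 groups. In the Intact group, CBAF1 females had mated 8 h earlier with intact BALB/c males. In the Vasectomised group, CBAF1 females had mated 8 h earlier with BALB/c males that had undergone vasectomy at 6 to 8 weeks of age, an operation that cuts off what reaches the ejaculate from upstream of the ligated duct, sperm included. The Control group held unmated virgin CBAF1 females. Females were 9 to 16 weeks old and males 12 to 28 weeks old. Each array held RNA pooled from 4 females, 16 females per group, so the spread between arrays is a spread between pools. The sample labels place controls at estrus and the methods collect them in the evening of pro-estrus, so that in a comparison with Control the effects of mating, cycle stage and hour of collection cannot be told apart.

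NADPH oxidases are membrane enzymes that pass electrons from NADPH across a membrane to oxygen and so make superoxide or hydrogen peroxide. NOX1, an epithelial oxidase best known from the colon, works with the membrane subunit p22phox (Cyba), the organizer NOXO1 and the activator NOXA1, whereas the phagocyte oxidase pairs gp91phox (Cybb) and p22phox with the organizer p47phox (Ncf1) and makes the oxidative burst of neutrophils and macrophages. The dual oxidases DUOX1 and DUOX2 release hydrogen peroxide at mucosal surfaces and need a maturation factor (DUOXA1 or DUOXA2) to leave the endoplasmic reticulum, and NOX4 makes hydrogen peroxide with p22phox alone.

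The 3 genes of the NOX1 complex were those called higher after mating with intact males, of which Noxo1 and Noxa1 were also called after mating with vasectomised males, and their promoter windows are shown for this reason. Each window is the 250 bases upstream of the RefSeq start in build GRCm38.p6, read 5′ to 3′ on the strand of the gene. Nox1 lies on the minus strand at chrX:134111855-134112104, Noxo1 on the plus strand at chr17:24695984-24696233 and Noxa1 on the minus strand at chr2:25095206-25095455. Capitals mark matches to the NF-kB consensus and, in Noxa1, also to the C/EBP motif TTGCNNAA, both searched on either strand.

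Nox1: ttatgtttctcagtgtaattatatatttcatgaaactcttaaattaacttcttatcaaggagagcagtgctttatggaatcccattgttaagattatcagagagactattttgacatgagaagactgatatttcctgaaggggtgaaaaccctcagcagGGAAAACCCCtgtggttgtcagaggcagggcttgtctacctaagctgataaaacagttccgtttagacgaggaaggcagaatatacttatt

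Noxo1: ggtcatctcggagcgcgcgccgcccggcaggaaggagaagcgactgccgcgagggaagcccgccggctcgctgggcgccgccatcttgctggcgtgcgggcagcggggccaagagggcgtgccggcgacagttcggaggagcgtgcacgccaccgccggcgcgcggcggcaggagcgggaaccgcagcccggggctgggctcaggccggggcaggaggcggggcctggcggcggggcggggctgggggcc

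Noxa1: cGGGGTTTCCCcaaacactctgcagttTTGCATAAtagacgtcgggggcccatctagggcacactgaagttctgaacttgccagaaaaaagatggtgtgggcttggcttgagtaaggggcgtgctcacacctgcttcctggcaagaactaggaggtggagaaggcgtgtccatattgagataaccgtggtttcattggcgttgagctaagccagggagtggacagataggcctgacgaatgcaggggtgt

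The Nox1 window held 1 NF-kB match at positions -91 to -82, counted back from the start, in sequence of 38% GC. The Noxa1 window held an NF-kB match at -249 to -240 and the C/EBP match at -223 to -216, and its GC content was 53.2%. The Noxo1 window held no match to either motif, nor to AP-1 (TGANTCA), STAT (TTCNNNGAA) or the TATA box (TATAAA), and its GC content was 80%, against a median of 52.4% over 32536 windows of the same length. NF-kB matches occurred in 3.92% of those windows and C/EBP matches in 9.57%. All 10 genes had a window. Among the other 7, Nox4 and Ncf1 held a STAT match (7.04% of windows), Cybb and Duoxa2 an AP-1 match (6.73%), and Duoxa2 also a TATA box (12.3%). These are matches of letters and not measured binding.

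A gene was called higher or lower where its fold-change was at least 1.5 and its limma adjusted p, corrected over all clusters, was at most 0.05. Both comparisons of mated females with Control use the same 4 Control arrays, and they share the mated arrays with the values by which Nox1 and Noxo1 were chosen. For that reason, no excess of the 10 genes over the share of all genes is read as a result, here or below. Against Control, Nox1, Noxo1 and Noxa1 were called higher in the Intact group, 3 of 10 genes where 2.78% of 19938 genes were called higher, and none of the 10 was called lower (2.11% of genes were, and 4.90% in either direction). Noxo1 and Noxa1 were called higher in the Vasectomised group, 2 of 10 where 1.19% of genes were called higher, and again none was lower (0.657%, and 1.85% in either direction). At an unadjusted p under 0.05, 6 of the 10 genes differed in Intact (27.8% of all genes did) and 3 in Vasectomised (20.0% of all genes), all of them higher than in Control. The 3 of 10 in Vasectomised is near that background. The median log2 fold-change of the 10 genes against Control was 0.27 in the Intact group and 0.034 in the Vasectomised group, beside 0.0053 and -0.012 over all 19938 genes.

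Nox1, the catalytic subunit of the epithelial complex, had log2 intensities of 7.20, 7.77, 7.17 and 7.44 on the Intact arrays, 5.80, 5.49, 5.57 and 6.53 on the Vasectomised arrays, and 5.31, 5.76, 5.64 and 5.45 on the Control arrays. All Intact arrays lay above every other array, and the Vasectomised and Control ranges overlapped. Vasectomised 4 stood above the rest of both groups, and Vasectomised 1 (5.80) lay just above the highest Control array (5.76). Nox1 was 3.62-fold higher in the Intact group than in Control (log2 fold-change 1.85, SE 0.21, adjusted p = 0.000138). Its Control signal lay under the median cluster mean of 7.28, and since no detection call was used here, whether it was above background is unknown and the fold is one of measured signals. In the Vasectomised group its log2 fold-change against Control was 0.30 (95% confidence interval -0.15 to 0.76, adjusted p = 0.485). Without Vasectomised 4 that log2 fold-change was 0.075. Intact minus Vasectomised, by which the gene was chosen, was 1.55 on the log2 scale (SE 0.21).

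Noxo1, the organizer that holds the NOX1 complex at the membrane, gave log2 intensities of 10.30, 10.68, 10.46 and 10.58 in the Intact group, 9.57, 9.36, 9.54 and 9.78 in the Vasectomised group, and 8.68, 8.83, 8.40 and 8.05 in the Control group. The 3 groups formed 3 steps with no overlap between any of them. The signal was 4.03-fold higher in Intact than in Control (log2 fold-change 2.01, SE 0.15, adjusted p = 8.64e-06). It was 2.10-fold higher in Vasectomised than in Control (log2 fold-change 1.07, SE 0.15, adjusted p = 0.00270). Intact minus Vasectomised, also used in the choice of genes, was 0.94 on the log2 scale (SE 0.15).

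Noxa1, the activator that switches the complex on, read 10.13, 10.29, 10.16 and 10.30 in Intact, 9.73, 9.63, 10.003 and 9.90 in Vasectomised, and 9.23, 8.98, 8.74 and 8.61 in Control. It kept the same order of groups as Noxo1, again without overlap, with a narrower gap between the mated groups (0.41 on the log2 scale, SE 0.13). Noxa1 was 2.51-fold higher in Intact than in Control (log2 fold-change 1.33, SE 0.13, adjusted p = 3.46e-05). It was 1.90-fold higher in Vasectomised than in Control (log2 fold-change 0.92, SE 0.13, adjusted p = 0.00199).

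**Figure D1:**
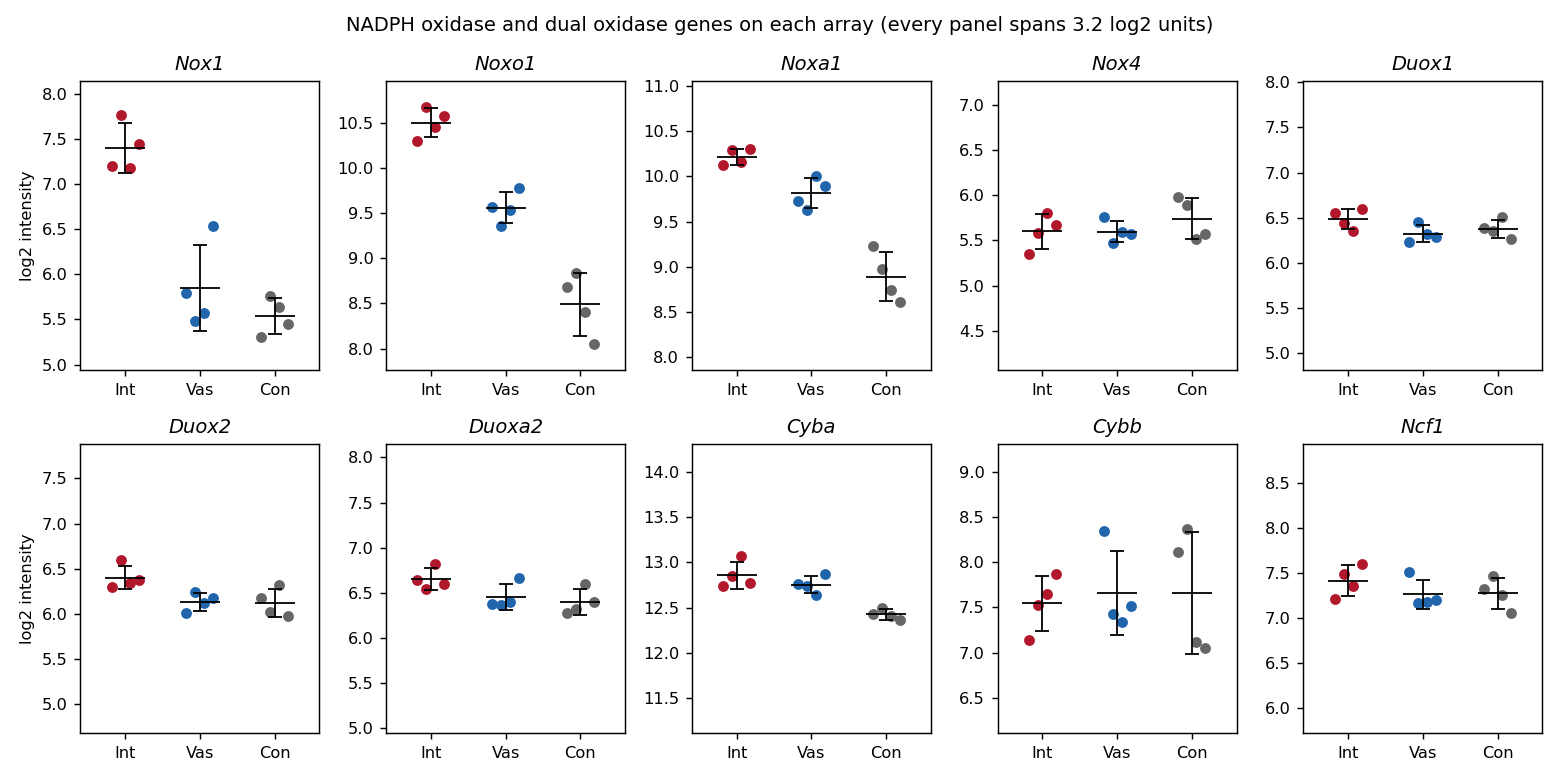
Log2 intensity (y axis) of the 10 oxidase genes on every array of the Intact (Int), Vasectomised (Vas) and Control (Con) groups, with the same span in each panel. Points are arrays, the long tick is the group mean and the bar its SD (n = 4 arrays); Noxo1 and Noxa1 fall into 3 separate steps, Nox1 is set apart in the Intact group, and the 4 Cybb values of the Control group split into 8.11 and 8.37 against 7.12 and 7.05.

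Cyba encodes p22phox, the membrane partner that NOX1, NOX4 and the phagocyte oxidase share. Its log2 intensities were 12.74, 12.85, 13.07 and 12.77 on Intact arrays, 12.77, 12.74, 12.64 and 12.87 on Vasectomised arrays, and 12.43, 12.50, 12.40 and 12.36 on Control arrays. Every mated array lay above every Control array, while the mated groups overlapped. Cyba passed the adjusted p but not the fold threshold in both comparisons with Control, with a fold-change of 1.35 in Intact (log2 0.43, SE 0.08, adjusted p = 0.00411) and of 1.26 in Vasectomised (log2 0.33, SE 0.08, adjusted p = 0.0365), so it was not called. By adjusted p alone, 4 of the 10 genes were higher in Intact (7.64% of all genes) and 3 in Vasectomised (3.51%). As each array was left out, the adjusted p of Cyba ran from 0.0198 to 0.105 in Vasectomised and from 0.00527 to 0.0144 in Intact. Its place among the 3 in Vasectomised thus depends on the arrays used. Intact minus Vasectomised for Cyba was 0.10 on the log2 scale (SE 0.08).

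The dual oxidases stayed within narrow ranges of a dim signal. Duox1, Duox2 and Duoxa2 had means over the 12 arrays of 6.40, 6.22 and 6.50, under the median cluster mean of 7.28. Without a detection call, whether these signals were above background is unknown. Duox2 read 6.30, 6.59, 6.35 and 6.37 in Intact, 6.01, 6.24, 6.12 and 6.18 in Vasectomised, and 6.18, 6.02, 6.32 and 5.97 in Control. Its Intact arrays lay above all Vasectomised arrays but overlapped with Control 3. Against Control the log2 fold-change of Duox2 was 0.28 in Intact (95% confidence interval 0.08 to 0.48, adjusted p = 0.0783) and 0.01 in Vasectomised (adjusted p = 0.962), and Intact minus Vasectomised was 0.27 (SE 0.09). Duoxa2, the maturation factor of DUOX2, read 6.64, 6.54, 6.82 and 6.60 in Intact, 6.38, 6.36, 6.40 and 6.67 in Vasectomised, and 6.28, 6.32, 6.60 and 6.39 in Control. Vasectomised 4 again lay highest in its group, here inside the range of the Intact arrays. The log2 fold-change of Duoxa2 against Control was 0.25 in Intact (95% confidence interval 0.05 to 0.46, adjusted p = 0.121) and 0.05 in Vasectomised (adjusted p = 0.816).

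Duox1 lay between 6.35 and 6.59 in Intact, between 6.23 and 6.46 in Vasectomised and between 6.26 and 6.51 in Control. Its ranges overlapped in all 3 groups, with log2 fold-changes against Control of 0.11 in Intact (95% confidence interval -0.06 to 0.28, adjusted p = 0.466) and -0.05 in Vasectomised (adjusted p = 0.774). Duox1 and Duox2 are close paralogs, so their probes may share part of their signal. The second maturation factor, Duoxa1, which is not among the 10 genes, had log2 fold-changes of 0.08 in Intact (adjusted p = 0.623) and -0.05 in Vasectomised (adjusted p = 0.795). The mean of Duoxa1, 6.73, also lay under the median cluster mean.

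Nox4, the constitutively active oxidase known from kidney and vessel wall, had log2 intensities of 5.35, 5.58, 5.81 and 5.67 in Intact, 5.76, 5.47, 5.60 and 5.57 in Vasectomised, and 5.98, 5.90, 5.51 and 5.58 in Control. The 3 groups overlapped, and Control 1 and 2 were the highest of the 12 arrays. The mean of Nox4 over the arrays, 5.65, lay under the median cluster mean of 7.28, and whether it was above background is likewise unknown. The log2 fold-change was -0.14 in both mated groups, with a 95% confidence interval of -0.41 to 0.12 in each (adjusted p = 0.570 in Intact and 0.583 in Vasectomised).

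The phagocyte oxidase genes were not called in either comparison. Cybb, its catalytic subunit, read 7.14, 7.53, 7.65 and 7.87 in Intact, 8.34, 7.42, 7.34 and 7.51 in Vasectomised, and 8.11, 8.37, 7.12 and 7.05 in Control. Control 1, Control 2 and Vasectomised 1 were the high arrays, and the Intact range lay inside the Control range. The log2 fold-change of Cybb against Control was -0.12 in Intact (95% confidence interval -0.79 to 0.55, adjusted p = 0.878) and -0.01 in Vasectomised (-0.68 to 0.66, adjusted p = 0.993). Those intervals are the widest of the 10 genes, and they hold changes past 1.5-fold downwards in Intact and in both directions in Vasectomised. Ncf1, the organizer p47phox, read 7.21, 7.49, 7.36 and 7.60 in Intact, 7.51, 7.17, 7.18 and 7.20 in Vasectomised, and 7.32, 7.47, 7.26 and 7.06 in Control. Its groups overlapped, with log2 fold-changes of 0.14 in Intact (95% confidence interval -0.10 to 0.38, adjusted p = 0.526) and -0.01 in Vasectomised (adjusted p = 0.972).

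**Figure D2:**
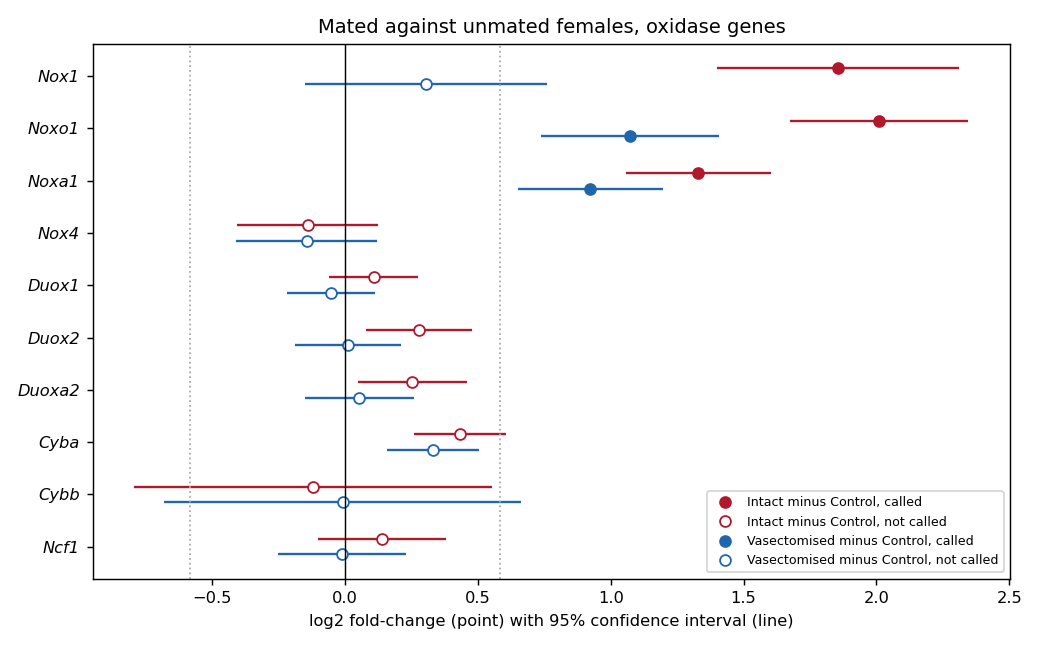
Log2 fold-change against Control (x axis) of the 10 oxidase genes in the Intact group (upper point of each pair) and the Vasectomised group (lower point), with 95% confidence intervals as lines. Filled points were called, open points were not, and the dotted lines mark a fold-change of 1.5. Nox1, Noxo1 and Noxa1 lie to the right, Nox1 in the Vasectomised group (0.30) was not called, and Cyba lies between 0 and the dotted line in both groups.

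Without regard to a threshold, 4 genes had all Intact arrays above all Vasectomised arrays, namely Nox1, Noxo1, Noxa1 and Duox2, where 9.04% of all genes did. Called genes made up 0.627% (higher), 0.271% (lower) and 0.898% (either direction) of all genes in that comparison, and 1.72% were higher by adjusted p alone. None of the 10 genes lay lower without overlap in Intact than in Vasectomised (7.49% of genes). Since that comparison chose Nox1 and Noxo1, nothing is read from these shares. Against Control, 4 of the 10 genes were higher without overlap in Intact (Nox1, Noxo1, Noxa1 and Cyba; 10.4% of all genes) and 3 in Vasectomised (Noxo1, Noxa1 and Cyba; 7.41%), and none was lower without overlap in Intact (7.91%) or in Vasectomised (4.85%).

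Beyond the 10 genes, a list of 24 further oxidase genes (partners, regulators and relatives) had 21 with a named cluster. Of these, 2 were called higher in Intact against Control (Tiam1 and S100a9) and 0 lower, with 12 of 21 at an unadjusted p under 0.05 beside the 27.8% of all genes, and 0 were called in Vasectomised against Control by limma, where 6 of 21 had an unadjusted p under 0.05 beside 20.0% of all genes. The list's median log2 fold-change was 0.11 in Intact and 0.06 in Vasectomised, beside 0.0053 and -0.012 for all genes. Tiam1, an exchange factor that loads Rac with GTP, read 10.05, 9.73, 9.79 and 9.89 in Intact, 9.49, 9.60, 9.79 and 9.52 in Vasectomised, and 9.16, 9.13, 9.41 and 9.24 in Control. Both mated groups lay above all Control arrays. Its log2 fold-change was 0.63 in Intact (SE 0.09, adjusted p = 0.000973), close to the fold threshold of 0.58 on the log2 scale, and 0.37 in Vasectomised (adjusted p = 0.0483, under the fold threshold). Without Intact 1 the log2 fold-change of Tiam1 in Intact was 0.57 and no longer called.

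S100a9, a subunit of the calprotectin that neutrophils carry and that aids assembly of the phagocyte oxidase, read 6.73, 8.10, 7.02 and 7.41 in Intact, 5.85, 6.29, 6.25 and 6.20 in Vasectomised, and 5.99, 5.73, 5.94 and 5.91 in Control. The 4 Intact arrays lay above all others. S100a9 rose by 1.43 on the log2 scale in Intact against Control (SE 0.23, adjusted p = 0.0017), and its log2 fold-change was 0.26 in Vasectomised (adjusted p = 0.606). Intact minus Vasectomised was 1.17 (SE 0.23, adjusted p = 0.0235). That call was lost without Intact 4 (adjusted p = 0.0766), Vasectomised 1 (0.0647), Vasectomised 3 (0.0585) or Vasectomised 4 (0.0592), and with no variance moderation (0.0658). The gene is also one of the neutrophil markers below. Ncf4, the p40phox subunit of the phagocyte oxidase, had a log2 fold-change of 0.54 in Intact (SE 0.12, adjusted p = 0.0131, just under the fold threshold) and of 0.06 in Vasectomised (adjusted p = 0.856).

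The small GTPases that switch on NOX1 and the phagocyte oxidase were not called. Rac1 had log2 fold-changes of -0.15 in Intact (adjusted p = 0.141) and -0.13 in Vasectomised (adjusted p = 0.254), and Rac2, the haematopoietic form, 0.12 (adjusted p = 0.703) and -0.03 (adjusted p = 0.946). By adjusted p alone, 7 of the 21 genes were higher in Intact (7.64% of all genes) and 1 was lower (1195 of 19938 genes). In Vasectomised 3 of the 21 were higher (3.51% of all genes). The 3 were Tiam1, Rac3 (0.35, adjusted p = 0.0435) and Vav2 (0.34, adjusted p = 0.0148). Rac3 and Vav2 were named after their values were seen. Of the peroxidase genes, which use the hydrogen peroxide that oxidases make, 4 of 5 had a named cluster and 0 were called by limma in any comparison, with 2 at an unadjusted p under 0.05 in Intact against Control, 0 in Vasectomised against Control and 2 between the mated groups, where 17.6% of all genes did. Lactoperoxidase (Lpo) had log2 fold-changes of 0.29 in Intact (adjusted p = 0.207) and -0.17 in Vasectomised (adjusted p = 0.541). Peroxidasin (Pxdn), which crosslinks collagen IV, had 0.39 in Intact (adjusted p = 0.0106, under the fold threshold) and 0.08 in Vasectomised (adjusted p = 0.672). Myeloperoxidase (Mpo) had 0.06 and 0.09, and eosinophil peroxidase (Epx) 0.06 and -0.04, in Intact and Vasectomised against Control.

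**Figure D3:**
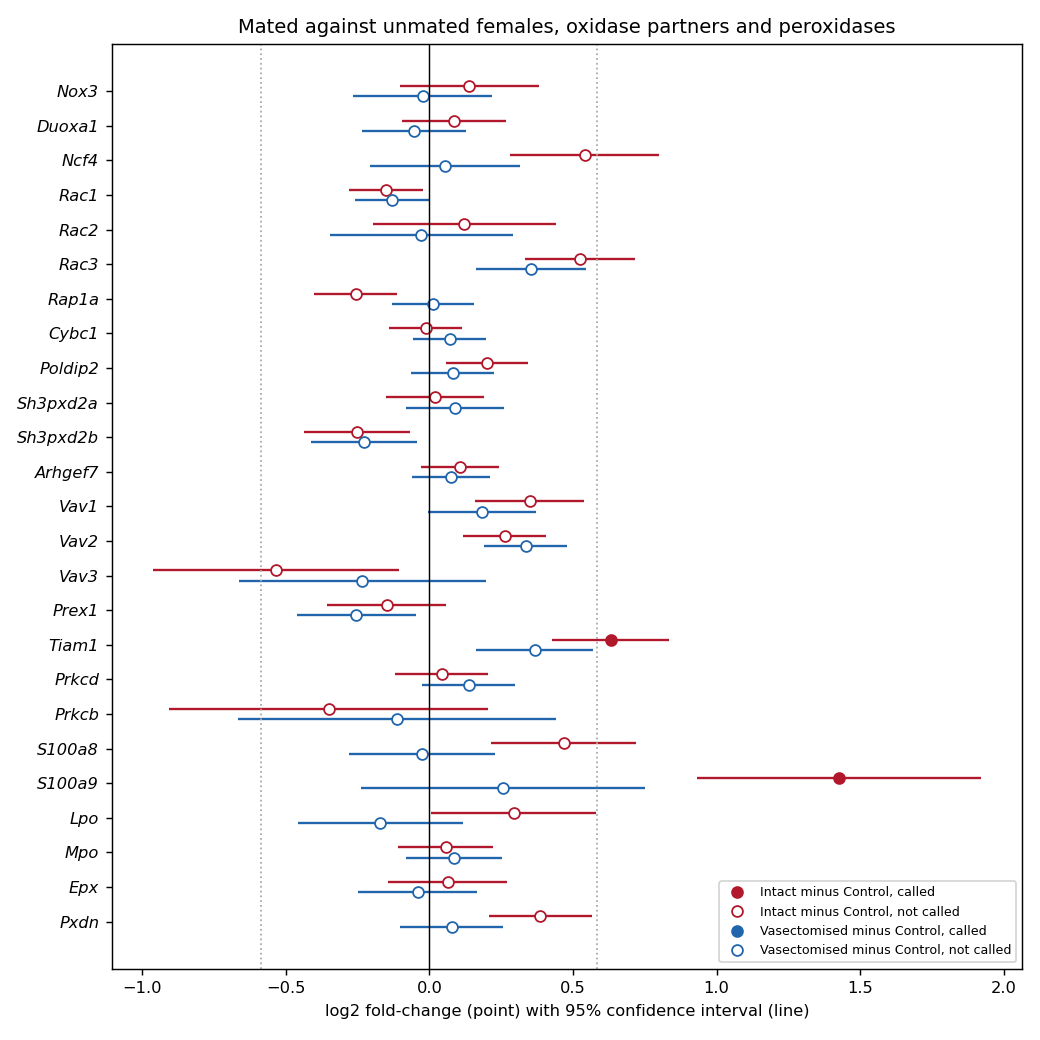
Log2 fold-change against Control (x axis) with 95% confidence intervals for 21 further oxidase genes and 4 peroxidase genes, the Intact group as the upper and the Vasectomised group as the lower point of each pair. Filled points were called and dotted lines mark a fold-change of 1.5; Tiam1 and S100a9 in the Intact group are the filled points.

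Because the arrays read RNA of whole tissue, more cells of a type and more RNA per cell cannot be told apart. The means of the epithelial and stromal marker lists lay above the array medians of 7.25 to 7.32 on every array, and so did that of smooth muscle (9.11 to 10.12 in Intact, 9.35 to 10.17 in Vasectomised and 9.68 to 9.81 in Control). Of 12 measured neutrophil markers, 3 were called higher in Intact against Control, where 2.78% of all genes were: Cxcr2 (log2 fold-change 2.25, adjusted p = 0.000162), S100a9 and Csf3r (1.14 with adjusted p = 0.00460). In Vasectomised against Control 0 were called by limma, where 1 had an unadjusted p under 0.05 (20.0% of all genes did). The mean log2 intensity over this list was 7.04 to 7.37 on Intact arrays, 6.76 to 6.92 on Vasectomised arrays and 6.64 to 6.78 on Control arrays. It was highest on the Intact arrays, as Nox1 was. In Intact against Control 11 of the 12 markers had a positive log2 fold-change (median 0.28), as did 10246 of 19938 genes (median 0.0053). An unadjusted p under 0.05 was seen for 6 of the 12 (27.8% of all genes), and 4 were higher by adjusted p (7.64%). Ly6g, named after its value was seen, had -0.44. The list's part in the Nox1, Noxo1 and Noxa1 values was not tested.

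Of 9 macrophage markers 0 were called in Intact against Control by limma, with 1 at an unadjusted p under 0.05 (27.8% of all genes). That marker, Cd68, was named after its values were seen. Its log2 fold-change was 0.45 in Intact (adjusted p = 0.00631) and 0.46 in Vasectomised (adjusted p = 0.0125), both under the fold threshold. The mean of the 9 markers ran from 7.73 to 8.34 in Intact, 7.84 to 8.43 in Vasectomised and 7.59 to 8.55 in Control. It was high on the 3 arrays where Cybb was high: 8.43 on Vasectomised 1, and 8.50 and 8.55 on Control 1 and 2. The mean of 7 stromal markers ran from 9.43 to 10.22 in Intact, 9.90 to 10.59 in Vasectomised and 10.13 to 10.94 in Control, with the same 3 arrays high (10.59 on Vasectomised 1, 10.94 and 10.82 on Control 1 and 2), and Lum and Col1a1 were called lower in Intact (log2 fold-changes of -0.97 and -0.75). The part of these markers in the Cybb values was not tested. The 8 epithelial markers, whose cells are the known site of NOX1 in other mucosae, ran from 12.39 to 12.46 in Intact, 12.32 to 12.40 in Vasectomised and 12.32 to 12.44 in Control. In Intact against Control 0 of the 8 were called by limma and 3 had an unadjusted p under 0.05 (27.8% of all genes). Those 3 also passed the adjusted p, 2 of them higher and 1 lower. The log2 fold-changes of the 8 ran from -0.35 to 0.55, so the list mean combines changes in both directions. Between the mated groups 4 of the 8 had an unadjusted p under 0.05 (17.6% of all genes), and 1 was higher by adjusted p (1.72%). Of 6 sperm markers, 0 were called by limma and 2 had an unadjusted p under 0.05 in Intact against Control (27.8% of all genes). Their mean was 6.40 to 6.47 in Intact, 6.27 to 6.30 in Vasectomised and 6.20 to 6.36 in Control. It was higher on all 4 Intact arrays than on the others, as Nox1 was, but lay under the median cluster mean of 7.28 on every array. The median log2 fold-change of the 6 markers in Intact against Control was 0.14. The part of this list in the Nox1 values was not tested.

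**Figure D4:**
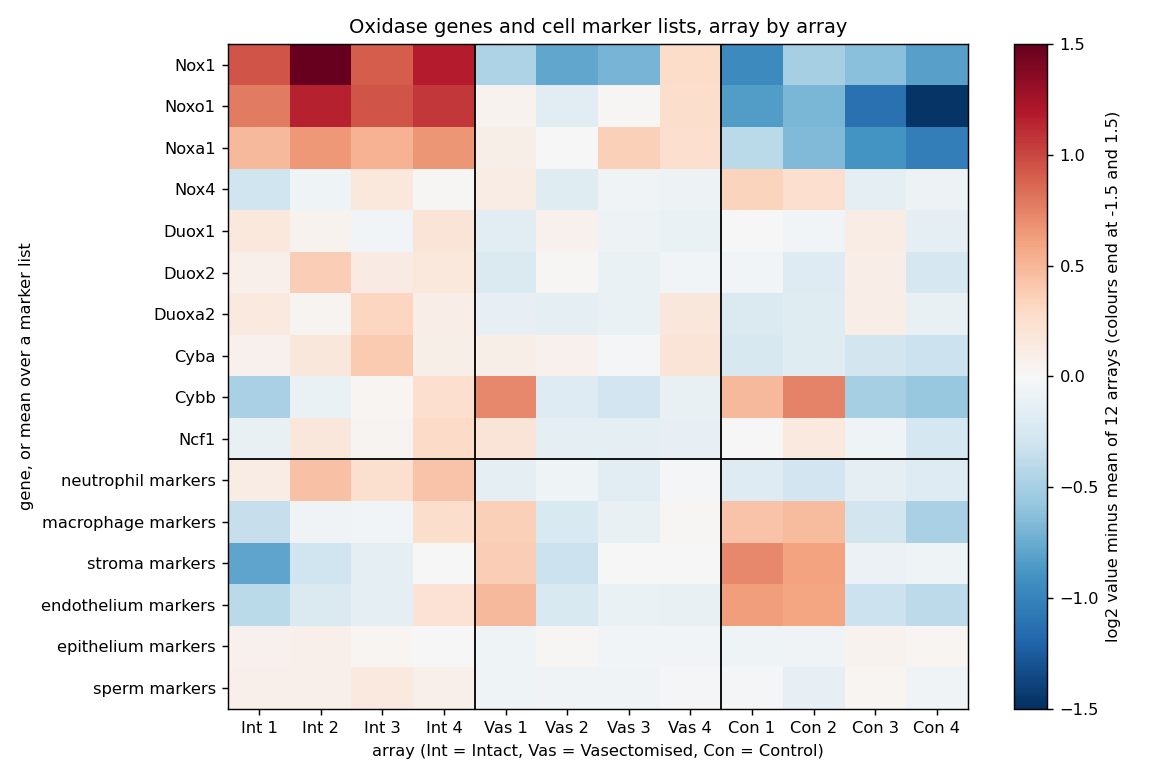
Log2 value minus the mean of all 12 arrays (colour) for the 10 oxidase genes and for the means of 6 marker lists (rows), on the arrays of the Intact, Vasectomised and Control groups (columns). Cybb and the macrophage, stroma and endothelium lists are high on Vasectomised 1, Control 1 and Control 2, while the NOX1 complex genes and the neutrophil list are high on the 4 Intact arrays.

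The genes whose values ran most like those of an oxidase gene were ranked by Pearson's r over the 12 arrays among all 19938 genes. The points share the differences between groups and the mix of cells on each array, and the genes were picked for a high r. The values are therefore a description. For Nox1 the 5 highest were Slfn4, Tnip1, Rgs9, Acot7 and Il23a (r of 0.966 to 0.971, Spearman's rho of 0.804 to 0.916). Without Intact 2 and Intact 4, the arrays farthest from the median, r was 0.938 to 0.966, and within groups 0.75 to 0.83. For Noxo1 they were Pglyrp1, Rcsd1, Smox, Hs6st1 and Cxcl5 (r of 0.986 to 0.991, rho of 0.958 to 0.986, and 0.740 to 0.894 within groups). Of these, Smox encodes spermine oxidase, another enzyme that makes hydrogen peroxide, and Cxcl5 a chemokine that draws neutrophils. Cxcl5 was also among the 5 highest by Spearman's rho, and Smox was not.

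For Duox2 the 5 highest were Glycam1, Olfr1383, Fcamr, Rnd1 and Col17a1, at a lower r of 0.896 to 0.952 (0.815 to 0.908 without Intact 2 and Control 4). For Cybb they were Phldb2, Lrp1, Fn1, Ms4a6c and Twist2, with r of 0.970 to 0.986 over all arrays and 0.974 to 0.986 within groups. The Cybb values thus varied with these genes inside groups as closely as over all 12 arrays, whereas r for Nox1 and Noxo1 was lower within groups than over all arrays.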

How the data were processed

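Endometrial RNA (300 ng per array) of 12 pools was hybridised to Mouse Gene 1.0 ST arrays. The authors processed the arrays in Partek with RMA background correction, a GC correction of probes and averaging of probes. The deposited files hold log2 values for 35556 transcript clusters, and no software version is given in the sources used here. Array medians lay between 7.25 and 7.32, and within-group correlations between 0.983 and 0.994, so no further normalization was applied. Per-array columns not used numbered 0. Array number limits the precision.

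Groups were taken from the sample titles. A linear model with a mean for each group was fitted over the 12 arrays together with R 4.3.3 and limma 3.58.1 (prior degrees of freedom 3.26, residual 9), with Benjamini-Hochberg correction over all clusters. The thresholds for a call were a 1.5-fold change and an adjusted p of 0.05. Symbols came from the platform annotation, 21789 rows having exactly 1 symbol, and the row with the highest mean over the arrays represented each gene. The code was tested on simulated data.

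The oxidase genes, gene lists, naming rule and alternatives were chosen with earlier results of these data known. The text names all 10 oxidase genes; Ncf4, Duoxa1, Rac1, Rac2 and any further oxidase gene called against Control; all peroxidase genes; called markers; and the 5 genes most like Nox1, Noxo1, Duox2 and Cybb. Genes of these lists without a named cluster were not analysed here. Lists of eosinophil, B cell, smooth muscle, endothelium and accessory gland markers had 0 genes called by limma in any comparison, with at most 1 per list and comparison at an unadjusted p under 0.05. S100a8 and S100a9 stand on both the oxidase and the neutrophil list. Alternatives were quantile normalization, median centring, trend and robust moderation, no moderation, weighted arrays, fits with a replicate block or of the 2 compared groups alone, dim clusters left out (mean under 7.28), correction over named clusters, 1 cluster per gene, the mean of a gene's rows, a 2-fold threshold or none, each array left out, and Control split into 1 and 2 or 3 and 4.

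Promoter windows came from RefSeq (GRCm38.p6).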

Additional observations from a re-analysis of the deposited data

Results flagged for a closer look

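In 117 groups of 4 arrays, over all measured oxidase and peroxidase genes and the called markers Cxcr2, Csf3r, Lum and Col1a1 (39 genes), 6 had 1 array set apart from the other 3, its gap to the nearest array, as a ratio to the group's range, passing the 95% critical value of Dixon's test. Chance alone gives about 1 in 20. Duoxa2 was high on Vasectomised 4 (6.67, against 6.36 to 6.40 on the others; ratio 0.874). Ncf1 was high on Vasectomised 1 (7.51, against 7.17 to 7.20; ratio 0.921), an array on which Cybb was high too (8.34). Rac1 was high on Vasectomised 3 (11.36, against 11.28 to 11.29; ratio 0.868). Mpo was low on Vasectomised 3 (6.27, against 6.32 to 6.33; ratio 0.973). Nox3, the oxidase of the inner ear, was low on Intact 4 (5.39, against 5.70 to 5.71; ratio 0.955). Arhgef7 was high on Control 1 (9.15, against 9.05 to 9.06; ratio 0.916).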

How the results depend on the processing

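The calls of Noxo1 and Noxa1 in both comparisons with Control and of Nox1 in Intact against Control held under each alternative that gave a value, except that Noxa1 in Vasectomised against Control was not called with a threshold of 2-fold (log2 fold-change 0.92), leaving 1 of the 10 genes called there. Nox1 in Intact against Control ranged from 1.73 to 1.93 on the log2 scale (adjusted p from 1.97e-05 to 0.00256) and had no value once dim clusters were left out. Leaving out each array kept the counts at 3 for Intact and 2 for Vasectomised. Replicate numbers did not pair the arrays (same-numbered r from -0.39 to 0.30, with 5 of 24 comparisons highest at an array's own number), and the replicate block left 3 and 2 genes called, while genes called over the whole table between the mated groups numbered 87 higher and 33 lower with it and 125 and 54 without it.

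Among the further oxidase genes, the number called higher in Intact against Control was 1 with dim clusters left out, 1 with a threshold of 2-fold and 7 with no fold threshold. The number called lower was 1 with no fold threshold and 2 with Control arrays 1 and 2 only. With no fold threshold, 3 were higher in Vasectomised against Control and 2 in Intact against Vasectomised, where the number was 0 with no variance moderation, 0 with dim clusters left out and 0 to 2 as each array was left out. The gene lost there was S100a9: without Intact 4, Vasectomised 1, Vasectomised 3 or Vasectomised 4 the number was 0. With no fold threshold 1 peroxidase gene was higher in Intact against Control. Spearman's rho shared 0 of its 5 highest genes with Pearson's r for Nox1, 0 for Cybb, 1 for Noxo1 and 3 for Duox2, so the genes named as most alike depend on the measure. Tiam1 in Intact against Control was not called with Control 3 and 4 only (0.54), where Ncf4 was called higher instead. Without Intact 1, Ncf4 likewise took the place of Tiam1 among the called genes, so the count hides this exchange.

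Changes of sign occurred only in values that were not called. As each array was left out, log2 fold-changes against Control ran from -0.037 to 0.078 for Duox2 in Vasectomised, from -0.018 to 0.12 for Duoxa2 in Vasectomised, from -0.32 to 0.12 for Cybb in Intact, from -0.24 to 0.23 for Cybb in Vasectomised and from -0.092 to 0.053 for Ncf1 in Vasectomised. With Control 3 and 4 only, the values were 0.056 for Nox4 and 0.46 for Cybb in Intact, and 0.052 for Nox4, -0.011 for Duox2, -0.044 for Duoxa2, 0.57 for Cybb and 0.11 for Ncf1 in Vasectomised; the cause was not tested. Quantile normalization and median centring moved the median of all genes by at most 0.03. Of the 10 oxidase genes, 5 (Nox1, Nox4, Duox1, Duox2 and Duoxa2) had a mean under the median cluster mean of 7.28, where small changes are harder to measure.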
